A study of Sus scrofa with 36 samples.

Results

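The 4 genes described here, measured in the pig mammary gland, encode major secreted proteins of milk: CSN2 (beta-casein), CSN1S1 (alpha-s1-casein), LALBA (alpha-lactalbumin) and WAP (whey acidic protein). A member was any of the 4 genes with a probe set annotated to its symbol alone, and each had 1 such probe set, so 4 of the 6360 genes with a probe set of their own are described. The data are 36 Affymetrix arrays, 1 per animal, of mammary gland RNA from female Yucatan miniature swine aged 5 months, in 9 groups of 4 pigs. All 32 pigs outside the sham group were ovariectomized and then given bromocriptine for 8 days, whatever they received afterwards.

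In the last 5 days the ovariectomized pigs received haloperidol with estrogen and progesterone (HEP), haloperidol with estrogen (HE), haloperidol with progesterone (HP), haloperidol (H), bromocriptine with estrogen and progesterone (BEP), bromocriptine with estrogen (BE), bromocriptine with progesterone (BP) or bromocriptine (B). The 4 sham pigs kept their ovaries and received saline. Every animal was injected with BrdU, a label for dividing cells, 24 hours before the end. The haloperidol groups therefore model a gland in which suppression was followed by stimulation, and sham differed from every other group in its ovaries and in its drugs together. Animals are named by group and by the letter A to D in their labels.

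Milk protein genes are switched on in the luminal secretory cells of the gland, where prolactin acts through its receptor, the kinase JAK2 and the transcription factors STAT5A and STAT5B. Bromocriptine, a dopamine agonist, lowers prolactin release from the pituitary, and haloperidol, a dopamine antagonist, raises it. Caseins form the micelles that carry calcium phosphate, alpha-lactalbumin is the regulatory subunit of lactose synthase and so sets lactose synthesis, and whey acidic protein is a small cysteine-rich whey protein. CSN1S1 and CSN2 lie next to each other in the reference annotation of the pig genome (Sscrofa11.1), whereas LALBA and WAP have other neighbours.

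Values are RMA levels on the log2 scale, and levels of different probe sets are not set against each other. Array medians lay between 7.83 and 7.91 and correlations between arrays between 0.865 and 0.984. The tissue label was met by luminal epithelial genes, with KRT8 (a keratin of simple epithelia) at a mean level of 12.5 and EPCAM (an epithelial adhesion molecule) at 11.6 over the 36 arrays. The array labelled BP A stood apart: over all probe sets its mean correlation with the other BP arrays was 0.889, against 0.959 with the HE arrays. The array labelled B A had the highest skeletal muscle score of the 36, at 6.31, and the lowest luminal epithelium score, at -1.46, where a score is the mean over a marker list of log2 values centred per gene. B B was far above the other B animals for all 4 milk protein genes. Differences and group means that include these 3 arrays are given without them where they moved most. In bulk tissue, fewer cells of a type and less RNA per cell cannot be told apart.

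Each of the 4 genes spanned a very wide range over the animals. CSN2 lay between 2.25 in B C and 12.4 in HP D, a 1104-fold range of signal. CSN1S1 spanned a 625-fold range, LALBA a 1416-fold range and WAP a 1141-fold range. At their highest, all 4 genes were in the top percent of signals on an array, with LALBA at the 99.6th and WAP at the 99.9th percentile. At their lowest they fell below the lower quartile of signals on their own array, in 4 animals for CSN2, 4 for CSN1S1, 12 for LALBA and 7 for WAP. Levels that low have no detection call in these data, so the size of a fold change that reaches into them is uncertain.

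CSN2, the beta-casein gene, had levels of 12.25, 11.82, 10.70 and 10.26 in HEP animals A to D, against 11.15, 9.97, 3.80 and 5.09 in BEP animals. It had 12.28, 12.31, 12.15 and 12.35 in HE animals, against 9.96, 9.01, 11.08 and 6.06 in BE animals. In HP animals it had 12.22, 11.51, 11.86 and 12.36, against 12.05, 8.67, 10.97 and 8.19 in BP animals. The 4 HE animals were nearly alike and all above the BE animals, whereas BP A lay among the HP animals. CSN2 had 12.14, 11.50, 12.04 and 11.64 in H animals, against 4.16, 11.58, 2.25 and 6.0 in B animals. The 4 sham animals had 10.79, 10.30, 10.88 and 10.98. Here B B was as high as the H animals, and every H animal was above every sham animal.

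CSN1S1, the alpha-s1-casein gene, followed the same layout. It had 12.57, 12.21, 11.12 and 11.75 in HEP animals, against 11.18, 9.96, 4.33 and 4.66 in BEP animals. It had 12.53, 12.61, 12.43 and 12.51 in HE animals, against 9.65, 9.43, 11.24 and 7.12 in BE animals. BEP held a pair of animals at 9.96 or above and a pair at 5.09 or below, for both caseins. The levels were 12.63, 11.55, 11.87 and 12.36 in HP animals, against 12.36, 9.23, 11.41 and 7.74 in BP animals. They were 12.40, 11.16, 12.11 and 11.50 in H animals, 3.34, 11.89, 6.94 and 5.18 in B animals, and 11.08, 10.35, 11.73 and 11.59 in sham animals. Of the 4 B animals, again B B alone reached the levels seen under haloperidol.

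LALBA, the alpha-lactalbumin gene, varied far more among haloperidol animals than the caseins did. It had 12.55, 8.79, 3.92 and 5.32 in HEP animals, against 9.54, 7.17, 3.45 and 2.96 in BEP animals. It had 12.44, 12.77, 12.60 and 12.67 in HE animals, against 6.99, 5.51, 9.60 and 4.48 in BE animals. Only under HE, among the haloperidol groups, were all 4 animals at the top of the range. LALBA had 12.56, 9.08, 10.43 and 10.91 in HP animals, against 12.72, 6.70, 9.77 and 3.57 in BP animals. It had 12.39, 8.33, 10.51 and 5.47 in H animals, 2.30, 10.78, 2.76 and 3.26 in B animals, and 7.77, 6.25, 5.16 and 9.46 in sham animals. H D, HEP C and HEP D were low for LALBA although both caseins were above 10 in each of them.

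WAP, the whey acidic protein gene, ranked the animals much as LALBA did. It had 12.90, 10.22, 6.71 and 8.39 in HEP animals, against 8.09, 6.84, 3.07 and 3.50 in BEP animals. It had 12.69, 13.22, 13.11 and 13.03 in HE animals, against 6.30, 5.99, 8.71 and 4.99 in BE animals. The HE animals stood clear of the BE animals by a wide gap. WAP had 13.02, 10.29, 12.01 and 11.35 in HP animals, against 12.82, 7.32, 9.14 and 5.99 in BP animals. It had 12.49, 9.77, 12.27 and 6.76 in H animals, 3.24, 10.18, 3.59 and 4.52 in B animals, and 7.68, 6.12, 6.02 and 10.08 in sham animals. BP A was the one bromocriptine animal within the range of the HE animals.

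**Figure D1:**
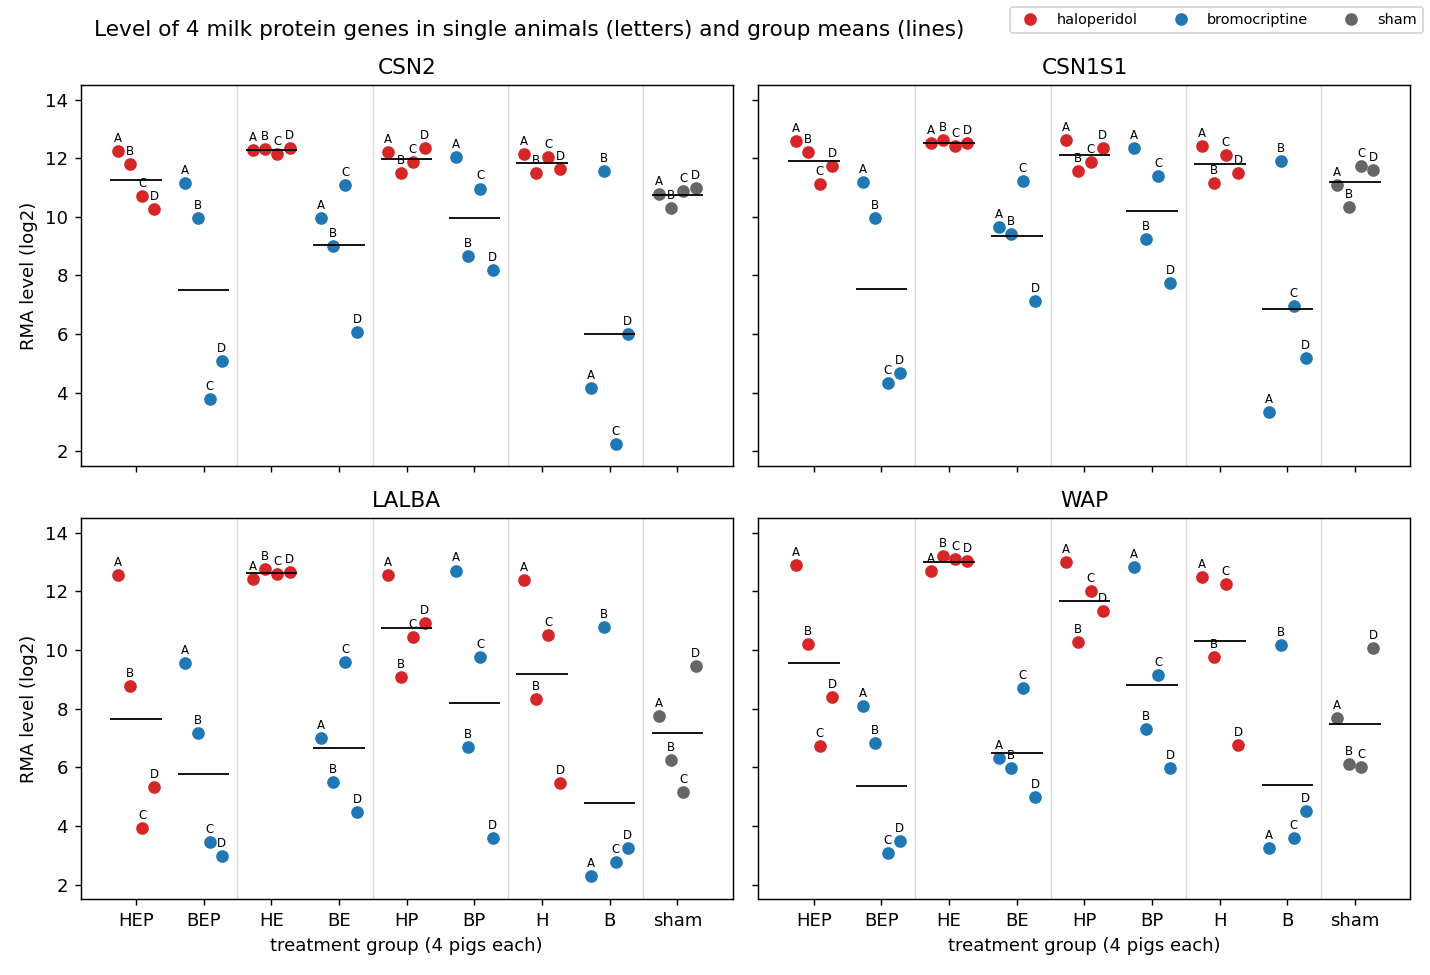
RMA level (log2, y axis) of CSN2, CSN1S1, LALBA and WAP in the 9 treatment groups (x axis), with 1 point per pig, the letter of the animal above it and a line at the group mean. All 4 HE animals sit at the top of every panel (12.15 to 12.35 for CSN2), while bromocriptine groups spread over most of the range, as from 2.25 to 11.58 for CSN2 in B.

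HE had the highest mean for all 4 genes, at 12.27 ± 0.09 for CSN2, 12.52 ± 0.07 for CSN1S1, 12.62 ± 0.14 for LALBA and 13.01 ± 0.23 for WAP (SD, n = 4). The order of group means below it was, for CSN2, HP, H, HEP, sham, BP, BE, BEP and B. For CSN1S1 it was HP, HEP, H, sham, BP, BE, BEP and B, so that for both caseins every haloperidol group lay above sham and every bromocriptine group below it. For LALBA the order after HE was HP, H, BP, HEP, sham, BE, BEP and B, and for WAP it was HP, H, HEP, BP, sham, BE, B and BEP. Without BP A the BP mean was 6.68 ± 3.10 for LALBA, below HEP and sham, and 7.48 ± 1.58 for WAP, level with sham at 7.47 (SD, n = 3). Without B A the B mean of CSN1S1 was 8.00 ± 3.48, above that of BEP at 7.53. For all 4 genes every group overlapped the next one in the order, so no neighbouring groups differed beyond the spread of their animals. B was the most variable group for CSN2, at 6.0 ± 4.02, and for LALBA, at 4.78 ± 4.02 (SD, n = 4).

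Haloperidol against bromocriptine was the first comparison, averaged over the 4 steroid backgrounds (estrogen with progesterone, estrogen, progesterone, neither). CSN2 lay between 10.26 and 12.36 with a median of 12.09 in the 16 haloperidol animals, and between 2.25 and 12.05 with a median of 8.84 in the 16 bromocriptine animals. CSN1S1 lay between 11.12 and 12.63 (median 12.29) in haloperidol animals, and between 3.34 and 12.36 (median 9.33) in bromocriptine animals. For both caseins the haloperidol animals filled a narrow band at the top, and 11 of the 16 bromocriptine animals lay below all of them. LALBA lay between 3.92 and 12.77 (median 10.71) in haloperidol animals, and between 2.30 and 12.72 (median 6.10) in bromocriptine animals. WAP lay between 6.71 and 13.22 (median 12.14) in haloperidol animals, and between 3.07 and 12.82 (median 6.15) in bromocriptine animals. Fewer bromocriptine animals lay below every haloperidol animal for these whey genes, 6 for LALBA and 9 for WAP.

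All 4 genes rose with haloperidol in limma's test over the whole table, in which 3.85% of all probe sets were called higher. CSN2 rose by 3.71 ± 0.68 on the log2 scale (SE), which is 13.1-fold, with an adjusted p of 0.000818. CSN1S1 rose by 3.60 ± 0.65, or 12.2-fold (adjusted p 0.000651). These casein changes were close to each other. LALBA rose by 3.70 ± 0.96, or 13.0-fold (adjusted p 0.0156), and WAP rose by 4.62 ± 0.75, or 24.6-fold (adjusted p 0.000216). Without B B and BP A the changes were 4.35, 4.21, 4.58 and 5.36 for CSN2, CSN1S1, LALBA and WAP, and without B A they were 3.56, 3.31, 3.49 and 4.44. All 4 were called in each of these fits.

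Within single steroid backgrounds the same direction was seen in all 16 values, but 2 passed the test. HE against BE was the background with the most calls in the table, 5.46% of probe sets called higher. There WAP rose by 6.52 ± 1.51 on the log2 scale (91.5-fold, adjusted p 0.00541) and LALBA by 5.97 ± 1.91 (62.9-fold, adjusted p 0.0414). CSN2 had a difference of 3.25 ± 1.36 (adjusted p 0.122) and CSN1S1 one of 3.16 ± 1.30 (adjusted p 0.113). Neither casein passed, although for all 4 genes the lowest HE animal was above the highest BE animal, which held for 9.07% of all probe sets in that direction.

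In H against B, where 0.0289% of probe sets were called higher, CSN2 had a difference of 5.83 ± 1.36 (adjusted p 0.104) and CSN1S1 one of 4.96 ± 1.30 (adjusted p 0.138). LALBA had 4.40 ± 1.91 (adjusted p 0.425) and WAP had 4.94 ± 1.51 (adjusted p 0.228). None of the 4 passed. Without B B the differences were 7.69 for CSN2 (adjusted p 0.00450) and 6.64 for CSN1S1 (adjusted p 0.0138), both called, and 6.40 for LALBA (adjusted p 0.243) and 6.54 for WAP (adjusted p 0.0862), not called. Without B A, whose muscle score was the highest, they were 5.22, 3.79, 3.57 and 4.22, and none was called.

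In HEP against BEP, where 0.635% of probe sets were called higher, none of the 4 passed. The differences were 3.76 ± 1.36 for CSN2 (adjusted p 0.181), 4.38 ± 1.30 for CSN1S1 (adjusted p 0.0883), 1.87 ± 1.91 for LALBA (adjusted p 0.720) and 4.18 ± 1.51 for WAP (adjusted p 0.177). In HP against BP the differences were 2.02 for CSN2, 1.92 for CSN1S1, 2.56 for LALBA and 2.85 for WAP, all with an adjusted p of 0.996. That comparison called 0 probe sets in limma's test, with 1006 at an unadjusted p under 0.05. Without BP A the same differences were 2.71, 2.64, 4.07 and 4.18, and still none was called.

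**Figure D2:**
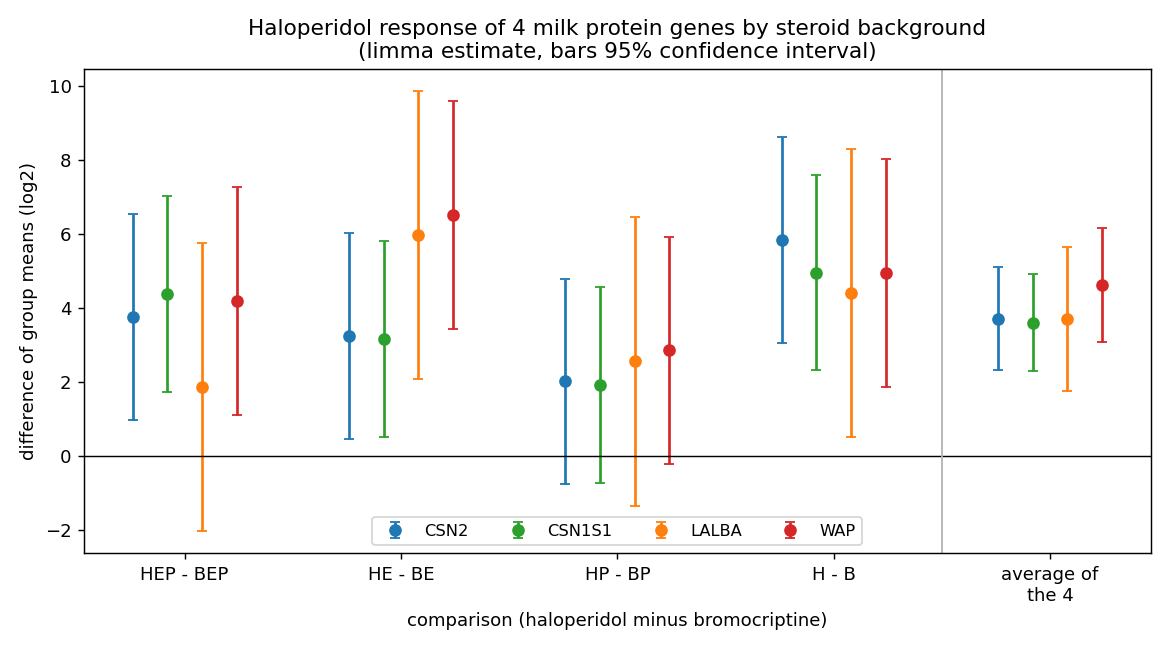
Difference of group means (log2, y axis) between haloperidol and bromocriptine for the 4 genes in each steroid background and averaged over the backgrounds (x axis), as limma estimates with 95% confidence intervals. All 16 single-background estimates lie above 0, and the averages lie between 3.60 for CSN1S1 and 4.62 for WAP.

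The order of response among the 4 genes was tested on the difference between 2 genes within each animal, with the drug labels permuted within each background (6 pairs, permutation test, two-sided, 100000 resamples, adjusted over the 6). WAP responded by 0.92 more than LALBA on the log2 scale (p 0.0088, adjusted p 0.0528), which did not pass. With group medians in place of means that difference was 0.98 and passed (adjusted p 0.0313), and without B B and BP A it was 0.78 and did not (adjusted p 0.153). WAP exceeded CSN2 by 0.91 (adjusted p 0.234) and CSN1S1 by 1.02 (adjusted p 0.207). The other 3 pairs differed by 0.11 or less in size, with adjusted p 0.986 each. No order among the 4 average responses was therefore shown.

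WAP minus LALBA was above 0 in every background, at 2.32 in HEP against BEP, 0.54 in HE against BE, 0.29 in HP against BP and 0.54 in H against B. The sign of the whey genes' differences from CSN2 varied. LALBA's difference was above that of CSN2 by 2.73 in HE against BE and by 0.54 in HP against BP, and below it by the coded values -1.43 in H against B and -1.89 in HEP against BEP. WAP minus CSN2 was 3.27 in HE against BE and -0.89 in H against B; with group medians these were 3.50 and 0.40, so the sign in H against B depended on the summary used. The single backgrounds were not tested against each other.

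A count of animals described how the genes went together. Each gene's midpoint was taken as the value halfway between its lowest and highest animal: 7.30 for CSN2, 7.98 for CSN1S1, 7.53 for LALBA and 8.14 for WAP. All 4 genes were above their midpoint in 18 of 36 animals and none was in 6, namely B A, B C, B D, BE D, BEP C and BEP D. Both caseins alone were above in 8 animals, H D and HEP C among the haloperidol animals, BE A, BE B, BP B and BEP B among the bromocriptine animals, and sham B and sham C. Of the remaining animals, 2 (BEP A and sham A) had both caseins and LALBA above, 1 (HEP D) had both caseins and WAP, and 1 (BP D) had CSN2 alone. No animal had LALBA or WAP above its midpoint without both caseins.

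That nesting moved with the midpoint chosen. With a midpoint halfway between the sham mean and the lowest animal, 28 animals had all 4 genes above, 2 (HEP C and BP D) lacked LALBA alone, and the 6 animals with none were the same. In the haloperidol arm the number of animals above the first midpoint was 16 of 16 for each casein, while H D, HEP C and, for LALBA, HEP D were below it for the whey genes.

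**Figure D3:**
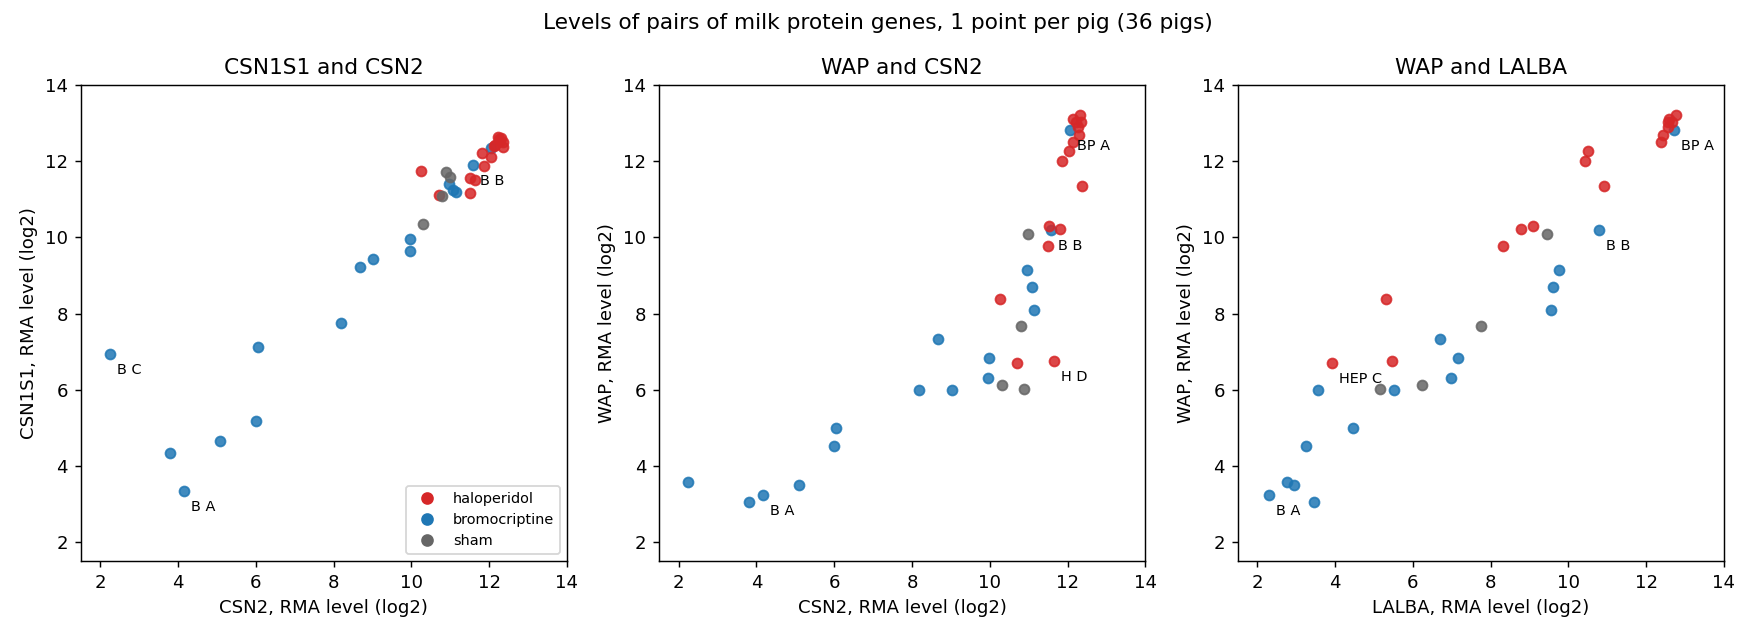
RMA levels (log2) of CSN1S1 against CSN2, WAP against CSN2 and WAP against LALBA, 1 point per pig, coloured by haloperidol, bromocriptine or sham. WAP spans the values from 6.71 to 13.22 among haloperidol pigs whose CSN2 stays between 10.26 and 12.36, whereas WAP and LALBA lie along 1 band.

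Animals of a group that were high for one gene were high for the others too. Deviations from the group means correlated at r = 0.890 (Spearman's rho 0.898) between CSN2 and CSN1S1 and at r = 0.976 (rho 0.969) between LALBA and WAP, over 36 animals. Across the classes r was 0.781 for CSN2 and LALBA, 0.774 for CSN2 and WAP, 0.796 for CSN1S1 and LALBA, and 0.784 for CSN1S1 and WAP. Permuting values within groups (100000 resamples, two-sided, adjusted over 6 pairs) gave adjusted p-values for Pearson's r between 1.2e-05 and 0.00064. With the 2 animals farthest from the median of the first gene left out, r was 0.973 for the caseins, 0.966 for LALBA and WAP, and between 0.682 and 0.738 across the classes. The points share the array they were read from.

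The distance between the mean casein and the mean whey level gave each group a balance on the log2 scale. Its zero depends on the probe sets, so the balance of a single group has no meaning by itself. In B and BEP at least 2 of 4 animals lay below the lower quartile of their array for each gene. The same held for LALBA and WAP in BE and for LALBA in HEP. Shifts that involve such low signal are no sure measure of casein against whey. The balance was 2.98 ± 2.53 in HEP, -0.42 ± 0.18 in HE, 0.84 ± 0.94 in HP and 2.06 ± 2.48 in H. It was 1.94 ± 0.93 in BEP, 2.62 ± 0.81 in BE, 1.57 ± 1.56 in BP, 1.34 ± 0.30 in B and 3.65 ± 1.76 in sham (SD, n = 4). Without BP A the BP value was 2.29 ± 0.78, and B had 1.37 ± 0.36 without B B and 1.46 ± 0.23 without B A (SD, n = 3). The lowest mean balance stood in HE. That of sham was the highest, but sham animals ran from 1.52 to 5.72 and overlapped those of HEP. The balance covers the 4 genes alone, and other milk protein genes did not all keep to this split. In HEP the caseins CSN3 and CSN1S2 had SDs of 2.62 and 2.73, against 0.93 for CSN2 and 2.65 for WAP. In H they had 1.01 and 0.46, against 0.31 for CSN2 and 2.68 for WAP. PAEP, of the beta-lactoglobulin family, was the gene most like CSN1S1 (r 0.956).

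Estrogen was the second factor. Averaged over backgrounds it gave differences of 0.07 ± 0.68 for CSN2, 0.10 ± 0.65 for CSN1S1, -0.05 ± 0.96 for LALBA and -0.44 ± 0.75 for WAP. None of the 4 passed (adjusted p 0.685 to 0.975), while the test called 17.5% of probe sets higher and 17.6% lower. In HE against H, where 9.81% of probe sets were called higher, LALBA had a difference of 3.44 ± 1.91 (adjusted p 0.210) and WAP one of 2.69 ± 1.51 (adjusted p 0.214). CSN2 and CSN1S1 had 0.44 and 0.72 (adjusted p 0.852 and 0.740). Every HE animal was above every H animal for all 4 genes, as it was for 12.4% of all probe sets, but by little: the lowest HE and the highest H animal had 12.44 and 12.39 for LALBA. In the other estrogen comparisons none of the 4 genes was called with all arrays, and the sign differed with progesterone. BE against B (2.88% of probe sets called higher) had differences of 3.03, 2.52, 1.87 and 1.12 for CSN2, CSN1S1, LALBA and WAP. Without B B they were 4.89 (adjusted p 0.0162), 4.20 (adjusted p 0.0385), 3.87 and 2.72, and both caseins were called. HEP against HP (7.7% called lower) had -0.73, -0.19, -3.10 and -2.11, and BEP against BP (0.197% called lower) had -2.47, -2.65, -2.41 and -3.44, or -1.78, -1.93, -0.90 and -2.11 without BP A. Without B B and BP A the estrogen averages were 0.71, 0.70, 0.83 and 0.30, none called.

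Progesterone averaged over backgrounds gave differences of 0.40 for CSN2, 0.31 for CSN1S1, -0.21 for LALBA and 0.05 for WAP, none called (adjusted p 1.00 each), with 0.077% of probe sets called higher. In HEP against HE LALBA had a difference of -4.97 ± 1.91 (adjusted p 0.338) and WAP one of -3.46 ± 1.51 (adjusted p 0.452), against -1.02 ± 1.36 for CSN2 (adjusted p 0.927) and -0.61 ± 1.30 for CSN1S1 (adjusted p 0.959). None was called there, where 0.173% of probe sets were called lower. Without estrogen the values were above 0: BP against B (0.00962% called higher) had 3.97, 3.35, 3.41 and 3.44 for CSN2, CSN1S1, LALBA and WAP, and HP against H (0% called higher) had 0.16, 0.31, 1.57 and 1.35. BEP against BE (0.0962% called lower) had -1.53, -1.83, -0.86 and -1.12. None of these was called, and without B B and BP A the BP against B values were 5.14, 4.30, 3.91 and 3.70. The progesterone averages without those arrays were 0.69, 0.55, -0.09 and 0.12. HEP A was as high as the HE animals for LALBA and WAP, and HEP C and HEP D were low.

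The interaction of estrogen with progesterone was negative for all 4 genes: -3.34 ± 1.36 for CSN2, -3.04 ± 1.30 for CSN1S1, -5.41 ± 1.91 for LALBA and -4.68 ± 1.51 for WAP. The adjusted p-values were 0.372, 0.401, 0.282 and 0.217, so none was called, in a comparison that called 0.0866% of probe sets lower. Without B B and BP A these interactions were -3.92, -3.52, -5.66 and -4.81, and none was called. The interactions of haloperidol with estrogen, with progesterone and with both gave no call for any of the 4 genes (adjusted p 0.588 to 1.00). Without B B and BP A those of haloperidol with estrogen were -1.70, -0.87, -1.31 and -0.01, against -0.42, 0.33, 0.44 and 1.45 for CSN2, CSN1S1, LALBA and WAP with all arrays. Probe sets were called in 7.48% of cases for haloperidol with estrogen and in 0% for the other 2.

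Sham was set against each ovariectomized group next, a difference of ovaries and drugs together. CSN2 fell in B by 4.74 ± 1.36 on the log2 scale (adjusted p 0.0413), in a comparison that called 2.62% of probe sets lower. The groups overlapped: B B was above every sham animal, and the other 3 B animals were below all of them. An exact permutation test of these 4 against 4 animals gave p 0.143 for CSN2 (adjusted p 0.286 over 80 such tests). CSN1S1 had a difference of -4.35 ± 1.30 (adjusted p 0.0501), LALBA one of -2.38 ± 1.91 (adjusted p 0.534) and WAP one of -2.09 ± 1.51 (adjusted p 0.476), and none of these passed. Without B B the CSN2 difference was -6.60 (adjusted p 0.00136) and that of CSN1S1 -6.03 (adjusted p 0.00244). Without B A, the array with the muscle signal, they were -4.13 (adjusted p 0.128) and -3.18 (adjusted p 0.201), and neither was called. With the muscle score as a covariate they were -4.45 (adjusted p 0.0707) and -3.82 (adjusted p 0.0964). In this comparison 3 of 5 basal and myoepithelial markers fell, the contractile genes ACTA2, CNN1 and TAGLN, with a list median of -0.83, while 3.3% of all genes fell and 0.896% rose. The score of that list overlapped between the groups. It ran from -0.86 in B A to -0.18 in B B, and from -0.26 in sham D to 0.80 in sham C. No luminal, muscle, adipocyte, endothelial or leukocyte marker passed. The list medians were -0.37 for luminal epithelium, 1.75 for skeletal muscle and 1.11 for adipocytes, against -0.04 over all genes. These medians include B A, with a luminal score of -1.46 and a muscle score of 6.31. B B, B C and B D had luminal scores of -0.02, 0.25 and 0.47, against -0.18 to 0.30 in sham. Their muscle scores were -1.22, -0.17 and -0.09, against -0.78 to 0.13 in sham. The part of these markers in the CSN2 fall was not tested beyond the covariates.

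WAP rose in HE against sham by 5.54 ± 1.51 (46.5-fold, adjusted p 0.0338), in a comparison that called 2% of probe sets higher. LALBA had a difference of 5.46 ± 1.91 (adjusted p 0.104), CSN2 one of 1.53 ± 1.36 (adjusted p 0.574) and CSN1S1 one of 1.33 ± 1.30 (adjusted p 0.613). These SEs use a spread shared by all 9 groups, not that of HE and sham. For CSN2 the SD was 0.09 in HE and 0.30 in sham, against 4.02 in B. With the compared groups alone in limma's fit, CSN2 and CSN1S1 were called (adjusted p 0.00544 and 0.0436). All HE animals were above all sham animals for each of the 4 genes, which held for 5.03% of probe sets. H against sham did not overlap for CSN2 either (6.39% of probe sets), nor did HP against sham for CSN2 and WAP (3.88%). None of the 4 genes was called in the other 6 comparisons with sham in the main fit. Some alternative limma fits did call CSN2 in H, HP and BEP against sham (lowest adjusted p 0.0269, 0.0409 and 0.0377). They also called WAP in HP (lowest 0.0474) and CSN1S1 in BEP against sham (lowest 0.0121). Of all probe sets, limma's test called 4.04% in H, 2.75% in HP and 0.731% in HEP against sham, where the 4 genes had differences of 0.49 to 4.19. It called 0.63% in BE, 0.13% in BP and 0.164% in BEP against sham, where they had differences of -3.65 to 1.34. The upper end rested on BP A: in BP against sham WAP had 1.34 and LALBA 1.03, and without BP A they had 0.01 and -0.48.

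The other milk protein genes gave the setting for these values. Of 20 listed, 15 were measured under their symbol, and 9 rose with haloperidol on average, 0 fell and 6 did not pass. Their median difference was 1.70, against 0.03 over all genes, of which 5.86% rose and 2.36% fell. CSN3, which encodes the kappa-casein that stabilises the micelle, rose by 3.76 ± 0.73 (adjusted p 0.00150), and CSN1S2, alpha-s2-casein, by 3.34 ± 0.84 (adjusted p 0.0134). MUC15 and MUC4, membrane mucins, rose by 3.48 ± 0.68 and 3.27 ± 0.54. SPP1 (osteopontin, also a milk protein) had a difference of 0.08 ± 0.17 (adjusted p 0.828) and CLU (clusterin) one of -0.23 ± 0.21 (adjusted p 0.570).

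**Figure D4:**
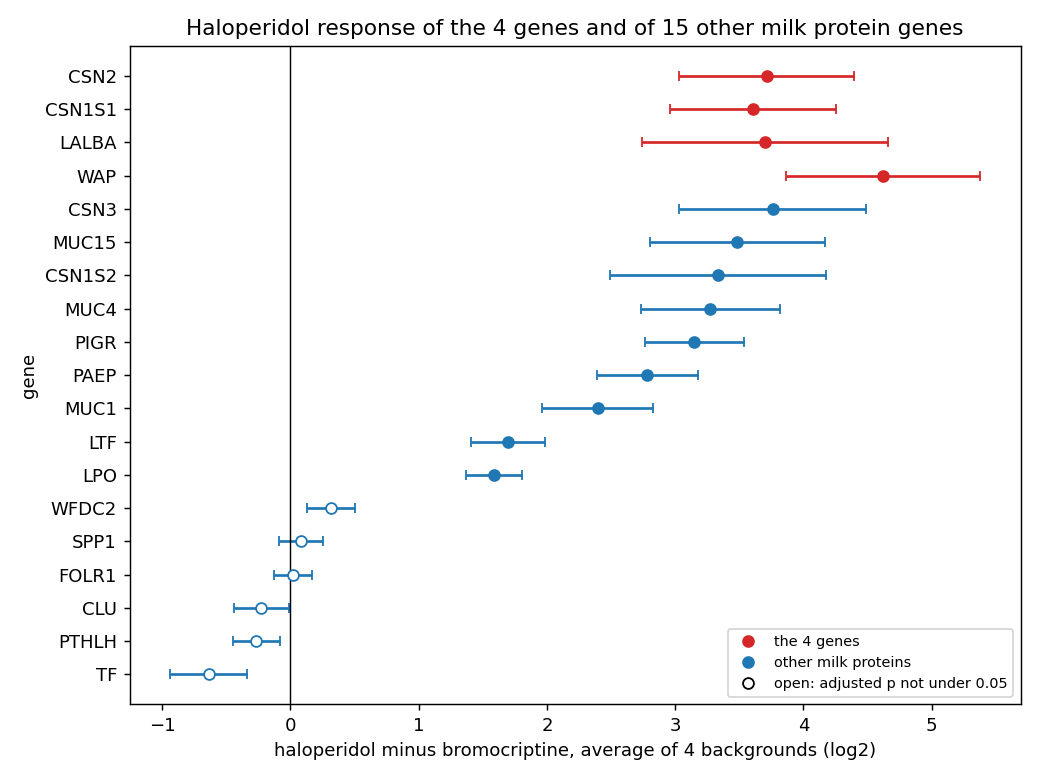
Haloperidol minus bromocriptine, averaged over 4 backgrounds (log2, x axis), for the 4 genes and for 15 other milk protein genes (y axis), as limma estimates with standard errors; open points did not pass the test. CSN3, MUC15 and CSN1S2, at 3.76, 3.48 and 3.34, lie close to the caseins and LALBA, whereas SPP1, at 0.08, lies near 0.

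Of the prolactin and STAT5 pathway list, 16 of 27 genes were measured: 3 rose, 1 fell and 12 did not pass. Their median was 0.02, against 0.03 over all genes, of which 5.86% rose and 2.36% fell. STAT5A rose by 0.95 ± 0.15 (adjusted p 0.000122) and STAT5B by 1.06 ± 0.17 (adjusted p 0.000167), both transcription factors downstream of the prolactin receptor. SOCS1, an inhibitor of JAK kinases, rose by 0.61 ± 0.16 (adjusted p 0.0216), and JAK2, the kinase bound to the receptor, fell by 0.57 ± 0.17 (adjusted p 0.0371). PRLR, CISH and ELF5 were not measured under their symbols here. These average changes, at most 1.06 in size, were smaller on the log2 scale than the 3.60 to 4.62 of the 4 milk protein genes. In HE against BE, where 7.78% of all genes rose, STAT5A rose by 1.75 ± 0.30 (adjusted p 0.000309) and STAT5B by 2.14 ± 0.34 (adjusted p 0.000144). In HEP against BEP, where 1.05% of all genes rose, they rose by 1.20 and 1.42. Neither was called in HP against BP or H against B. The interaction of haloperidol with estrogen was called for STAT5A (1.06 ± 0.30, adjusted p 0.0279) and STAT5B (1.45 ± 0.34, adjusted p 0.0116). It was called for 7.48% of all probe sets. The BP group, which enters this interaction and HP against BP, had a wide spread. Its animals ran from 9.48 to 11.28 for STAT5A (SD 0.85) and from 8.00 to 9.86 for STAT5B (SD 0.87). The STAT5A and STAT5B differences include BP A and are not given without it.

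Lactose synthesis, the pathway that alpha-lactalbumin serves, had 8 of 11 listed genes measured: 1 rose, 1 fell and 6 did not pass (median 0.19, against 0.03 over all genes, of which 5.86% rose and 2.36% fell). GALK1 (galactokinase) rose by 0.52 ± 0.15 (adjusted p 0.0349) and SLC2A8 (a sugar transporter) fell by 0.37 ± 0.11 (adjusted p 0.0432). B4GALT1, the catalytic partner of alpha-lactalbumin, had a difference of 0.36 ± 0.13 (adjusted p 0.0893). Of 11 measured genes of milk fat globules and lipid secretion (15 listed), 5 rose, 1 fell and 5 did not pass, with a median of 0.28. Among them MFGE8 (lactadherin) rose by 1.46, GPAM (a glycerol-phosphate acyltransferase) by 1.43 and PLIN2 (a lipid droplet coat protein) by 1.26, and ACSL1 (a fatty acid-activating enzyme) fell by 0.81.

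Markers of cell types were read against the same shares of all genes, 5.86% higher and 2.36% lower. Of 17 measured luminal epithelium markers (27 listed), 2 rose, 1 fell and 14 did not pass, with a median of 0.16. CLDN3, a tight junction protein, rose by 0.80 ± 0.17 (adjusted p 0.00370), EHF, an epithelial transcription factor, rose by 0.93 ± 0.27 (adjusted p 0.0334), and MAL2 fell by 0.37 ± 0.11 (adjusted p 0.0380). KRT8 had a difference of -0.03 ± 0.10 (adjusted p 0.907). The luminal score ran from -0.35 to 0.57 in haloperidol animals, from -1.46 to 0.47 in bromocriptine animals and from -0.18 to 0.30 in sham animals. With this score as a covariate the average changes were 3.65 for CSN2, 3.47 for CSN1S1, 3.66 for LALBA and 4.54 for WAP, all called. No marker passed among 5 for basal cells, 10 for adipocytes, 14 for skeletal muscle, 10 for endothelium and 8 for leukocytes in limma's test of the haloperidol average.

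In HE against BE, where LALBA and WAP were called, 2 of the 17 luminal markers rose (CLDN3 by 2.18 and EHF by 1.87) and MAL2 fell by 0.94. There 3 of 10 adipocyte markers fell, LEP, LIPE and GPD1, with a list median of -1.0, and 1 of 10 endothelial markers fell, AQP1. No basal, muscle or leukocyte marker was called in that comparison, in which 7.78% of all genes rose and 4.12% fell. The adipocyte score also differed between haloperidol groups. It lay between -1.44 and -0.90 in the HE animals, against 0.81 to 1.35 in the H animals. With the luminal score as a covariate the LALBA difference in HE against BE was 5.90 (adjusted p 0.0519, not called) and that of WAP 6.35 (adjusted p 0.00816). The part of the adipocyte and endothelial markers in these differences was not tested.

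The genes most alike to each member were ranked by Pearson's r over the 36 arrays, among 6189 other named genes. For CSN2 they were CSN3 (0.938), PAEP (0.919), CSN1S2 (0.903), SLC34A2 (0.800) and PGLYRP1 (0.752). For CSN1S1 they were PAEP (0.956), CSN3 (0.919), CSN1S2 (0.859), SLC34A2 (0.802) and SAA2 (0.790). PAEP encodes a lipocalin of the beta-lactoglobulin family and SLC34A2 a sodium-dependent phosphate transporter. For LALBA they were CSN3 (0.923), MUC15 (0.913), CSN1S2 (0.873), ACSL6 (0.857) and RHOU (0.838). For WAP they were CSN3 (0.929), SLC34A2 (0.907), MUC15 (0.905), PIGR (0.887) and ACSL6 (0.882), PIGR being the receptor that carries antibodies into milk. CSN3 was first or second for each of the 4. SLC34A2 itself had a haloperidol difference of 4.44 ± 0.41. It was named for its likeness to genes that rose with haloperidol, so this value is no separate result. Deviations of SLC34A2 from the group means correlated at r = 0.660 with CSN2, 0.660 with CSN1S1 and 0.800 with WAP.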

How the data were processed

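Mammary gland RNA from 36 pigs was hybridised to 1 Affymetrix array per animal. The authors deposited log2 expression values per probe set, made with RMA per the submitters' processing notes; the sources used here name no RMA software or version. The log base is not stated and was read as log2 from the range of the values, 1.55 to 13.7. RMA's quantile normalization makes arrays alike in distribution and compresses differences at the dim end.

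Of 20792 probe sets, 9149 had 1 gene symbol in the platform annotation, 178 had several and 11465 had none. Groups came from the labels. limma 3.58.1 in R 4.3.3 fitted 1 mean per group to all 36 arrays (27 residual df), with no filter, covariate or block; p-values are two-sided, adjusted by Benjamini-Hochberg over the 20792 probe sets of each comparison, and an adjusted p under 0.05 was called. Each probe set thus had 1 estimate of spread, shared by all 9 groups, also where the groups differed in spread. Gene pairs were tested by permutation (scipy 1.17.1). The limma fit and the permutation tests were tested on simulated data. The 36 arrays limit the precision.

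The genes, lists, named genes and tests were chosen with earlier results of these data known. Named are the 4 genes, the 5 genes most correlated with each, up to 4 called genes with the largest change per list, and genes of the prolactin pathway and the caseins; KRT8, EPCAM, SPP1, CLU, B4GALT1 and the cell type markers called in HE against BE or B against sham were named after their values were seen. Alternatives were another normalization, centring, dim probe sets left out, a variance trend, array weights, the letter as a block, 1 probe set per gene, the compared groups alone, marker scores as covariates and arrays left out.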

Additional observations from a re-analysis of the deposited data

Results flagged for a closer look

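LALBA in B B, at 10.8, lay far from the other 3 animals of group B, which had 2.30, 2.76 and 3.26. Its gap to the nearest of them, divided by the range of the group, was 0.886, past Dixon's 95% critical value for 4 animals. It was the only one past that value among the 36 sets of 4 animals examined (4 genes in 9 groups), and chance gives such a value in about 1 of 20 sets. In the same animal CSN2 was 11.58, CSN1S1 11.89 and WAP 10.18. Without B B, the LALBA difference was 6.40 in H against B (adjusted p 0.243, limma) and -4.38 in B against sham (adjusted p 0.221), neither called.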

How the results depend on the processing

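The haloperidol average was called for all 4 genes under every alternative run. With 1 array left out it ran from 3.40 to 4.18 for CSN2, 3.31 to 4.02 for CSN1S1, 3.29 to 4.20 for LALBA and 4.34 to 5.02 for WAP. Of 5184 alternative values over 27 comparisons, 5111 kept their side of the threshold, of which 93 were uncalled values that changed sign, 27 lost a call and 46 gained one; 0 called values changed sign. Called probe sets numbered 1451 of 20792 for the haloperidol average, and 628 of 6360 with 1 probe set per gene. They numbered 2776 with array weights, 2198 without B B and BP A, and 1066 to 2431 with 1 array left out (2431 without BP A).

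Calls within single comparisons depended on the setting. In some cases the difference stayed the same, and only the estimate of spread or the adjustment over probe sets changed. Where the difference moved too, the cause was not tested. CSN2 in B against sham lost its call with a variance trend (-4.74, adjusted p 0.0552), the compared groups alone (-4.74, 0.198), and the luminal (-4.62, 0.0517) or muscle score (-4.45, 0.0707) as covariate. With 1 array left out it ran from -6.60 to -3.49, uncalled without any 1 sham animal, B A, B C or B D. CSN1S1 in B against sham (-4.35) was called without dim probe sets (0.0443), after centring (0.0495), with 1 probe set per gene (0.0496), with array weights (-3.61, 0.0480) and without B B and BP A (-6.03, 0.00105); with 1 array left out it ran from -6.03 to -3.18. LALBA in HE against BE lost its call with a variance trend (5.97, 0.0534) and the luminal score (5.90, 0.0519), and ran from 5.25 to 6.96 with 1 array left out, uncalled without any 1 HE animal, BE A, BE B or BE D. WAP in HE against sham ran from 5.05 to 6.41, uncalled without any 1 HE animal, sham A, sham B or sham C.

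Array weights brought calls for CSN2 in H against B (5.85), and in HEP against BEP for CSN2 (4.24), CSN1S1 (4.91) and WAP (4.92). The compared groups alone brought calls in HE against BE for CSN2 (3.25) and CSN1S1 (3.16), and in HE against sham for CSN2 (1.53), CSN1S1 (1.33) and LALBA (5.46). Without B B and BP A, calls came in H against B for CSN2 (7.69), CSN1S1 (6.64) and WAP (6.54). In HE against BE they came for CSN2 (3.25) and CSN1S1 (3.16). HEP against BEP gained CSN1S1 (4.38) and HE against sham gained LALBA (5.46). Neither array belongs to HE, BE, HEP, BEP or sham. The differences in these later comparisons therefore kept their size, and only the shared spread and the adjustment over probe sets changed. With 1 array left out, H against B ran from 4.58 to 7.69 for CSN2 and 3.79 to 6.64 for CSN1S1 (each called without B B), and HEP against BEP from 3.31 to 5.60 for CSN1S1 (called without BEP A or B B). WAP minus LALBA passed with medians (0.98). Under the midpoint of sham and lowest value, 30 animals were above it for WAP, against 19.

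The labels do not say that the letters A to D link animals, so the letters were not used as pairs. Deviations of same-letter animals correlated at -0.414 to 0.457 (median 0.045), with 52 of 144 pairs over 0.1. Pairs of different letters had a median of -0.017, with 101 of 432 over 0.1. Of 36 animals, 14 correlated best with their own letter. A likeness by letter was not tested beyond the fits with the letter as a block. Letter A was the highest in 5 of 9 groups for CSN1S1, LALBA and WAP and in 4 for CSN2. With the letter as a replicate block the haloperidol average had adjusted p-values of 0.000748, 0.000679, 0.00841 and 0.000158 for CSN2, CSN1S1, LALBA and WAP, and CSN1S1 in B against sham was called (-4.35, adjusted p 0.0457; as a random term 0.0451). An exact permutation test of 4 against 4 animals cannot go below 0.0286 and was run for the 4 genes alone, so it has no p adjusted over all probe sets. Each gene had 1 probe set, so no other probe set could be tried. Signal near background limits the folds of LALBA and WAP most.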
